A study of Danio rerio with 24 samples.

Results

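Transcripts of membrane transporters and ion channels were examined in 24 single, mature, unfertilized eggs of zebrafish (Danio rerio), each hybridized on its own array. They were found by name in the parts held of 3 tables of the study. The first lists expressed and non-expressed genes and is named here the table of expressed genes. The others list genes with levels set apart between mothers, and genes that differ between mothers. A probe was taken where its symbol begins with slc (the mitochondrial slc25 carriers left out), slco, abc, kcn, cacn, scn, clcn, trp followed by a, c, m or v, aqp, atp1, atp2 or atp6. Of the 3835 probes of these tables, 71 matched, and the 57 with a mean log2 signal of at least 7 in the deposited series table were kept. They stand for 56 gene symbols, among the 88754 probes measured. The 14 matching probes below this signal were left out: slc39a5 lay just outside, at a mean that rounds to 7.0, and slc35b1 (7.045) and slc52a3-2b (7.109) lay just inside.

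The eggs came from 5 wild-type ABTL females that were siblings, with 5 eggs each from mothers 1 to 4 and 4 eggs from mother 5. No egg was treated, the mothers' age is not given in the sources used here, and each egg is a separate RNA sample of 1 clutch. There was 1 clutch per mother, so effects of a mother and of her clutch cannot be told apart, and the spread over sister eggs is the only replicate error. RNA of the egg was labelled with Cy3 and a reference pooled from eggs with Cy5. Levels are log2 values of the Cy3 signal after quantile normalization, so a difference of 1 is a 2-fold change. Means are followed by the SD over the sister eggs (n = 5, or n = 4 for mother 5), and single values are those of the eggs of a mother. Signals of different probes depend on the affinity of each probe and were not set against each other.

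An egg receives its membrane proteins and their mRNAs from the mother, before its own genome is read. Solute carriers (SLC) move sugars, amino acids, metals, nucleotides and ions across membranes, mostly driven by ion gradients, ATP-binding cassette (ABC) proteins and P-type ATPases use ATP directly, and the V-type proton ATPase acidifies endosomes, lysosomes and yolk-bearing compartments. Channels let ions pass down their gradient and set membrane potential and calcium signals.

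The labelled cell type was checked against marker genes. All 11 probes of egg and germline markers (zona pellucida proteins, the linker histone h1m, npm2a, npm2b, piwil1 and tdrd5) were called expressed. In the limma fit, 9 of them differed between mothers, beside 61.6% of all expressed transcripts, with folds of 1.09 to 7.38 over the 11. The zona pellucida marker zp2l2 was dim and present in only 6 eggs. Its means were 6.13, 6.143 and 6.1 in mothers 1, 4 and 5, against 7.108 and 7.111 in mothers 2 and 3. The 3 probes of the blood globins hbae1 and hbae3 were not called expressed. The single follicle cell marker with a probe, the hormone receptor lhcgr, was also called expressed. It was present in 5 of the 5 eggs of mother 2 (7.34 to 7.82) and in 0 of the other eggs (6.15 to 6.59). The mean raw log2 Cy3 signal of an array ran between 6.6 and 7.49, and was not spread evenly over the mothers. It was 6.66 to 7.19 in mother 1, 6.6 to 7.49 in mother 2 and 6.69 to 7.42 in mother 3. In mother 4 it was 7.11 to 7.34 and in mother 5 6.76 to 7.08. Present calls were not even at a like normalized signal: abcb11a, with means of 7.04 in mother 1 and 7.01 in mother 4, was present in 1 and 5 of their 5 eggs. In Cy5, which held the same reference on every array, limma called 0 of the 57 probes between mothers, and 0 had an unadjusted p under 0.05. Among all 26917 expressed transcripts, limma called 0 in Cy5, and 195 had an unadjusted p under 0.05. With so few in all, the count of 0 says nothing particular about these probes.

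All 57 probes were called expressed, that is present on at least 4 of the 24 arrays, beside 30.3% of all probes measured. The rule drew on the study's tables and asked for a mean signal of at least 7, so this count is no result about them. On all arrays, 33 of the 57 were present, beside 16699 of the 26917 expressed transcripts. Mean signals of the 57 ran between 6.994 and 13.163. Which table lists a probe decides what may be tested. Of the 57, 31 are in the table of genes with distinct levels, which the study filled with genes whose clutches stand apart in these same eggs. Their differences are therefore given as a description, with no test. The other 26 are in the table of expressed genes or, for 8 of them, in the table of differing genes alone. The study called genes expressed without the mother labels, but from the variance over all eggs. Differences between mothers enter this variance, so these tests are not fully independent of the call either. The table of differing genes holds nearly all expressed genes of the study, but was made on the same contrast. The 8 are atp2a2a, slc7a4, slc20a1b, slc30a6, slc30a9, slc35b1, kcnc2 and trpc4apb, whose tests are not independent of how they were found.

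In the table of expressed genes, which counts 20 of the transporter and channel probes, 11 differed between mothers (limma moderated F-test over 5 mothers, Benjamini-Hochberg adjusted p under 0.05 over all expressed transcripts). In the same fit, 65.3% of the expressed transcripts of that table and 61.6% of all expressed transcripts differed. Of the 20, 3 had distinct levels, where the clutch ranges merge into at least 2 groups that do not overlap, beside 18.3% in that table and 18.2% of all expressed transcripts. A fold over 2 between at least 1 pair of mothers, with an adjusted p under 0.05, was found in 2 of the 20, beside 10.9% in that table and 10.4% overall. These 2, slc9a6a and atp6v0e1, are also in the distinct-level table. Without them, 9 of 18 differed. The median fold of the highest over the lowest mother was 1.3 in these 20, against 1.39 in that table and 1.37 in all expressed transcripts. These shares were close to the background. Over all 57 probes, 44 differed, 32 had distinct levels and 22 had a fold over 2. These counts take in the 31 probes chosen for distinct levels, so they are a description and no test. Of the 26 probes outside the distinct-level table, 13 differed, beside 61.6% of all expressed transcripts, and slc7a4 alone had a fold over 2. Of the 32 with distinct levels, 30 come from the table chosen for them, of whose expressed transcripts 98.4% had distinct levels here. With each array centred on its median in place of quantile normalization, 1 of the 20 differed, slc12a2, beside 12.4% of all expressed transcripts. All 12 other calls among the 26 probes outside the distinct-level table were lost as well. This centring moves the median expressed transcript itself, by -0.43 in mother 1 and 0.54 in mother 4 on the log2 scale.

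**Figure D1:**
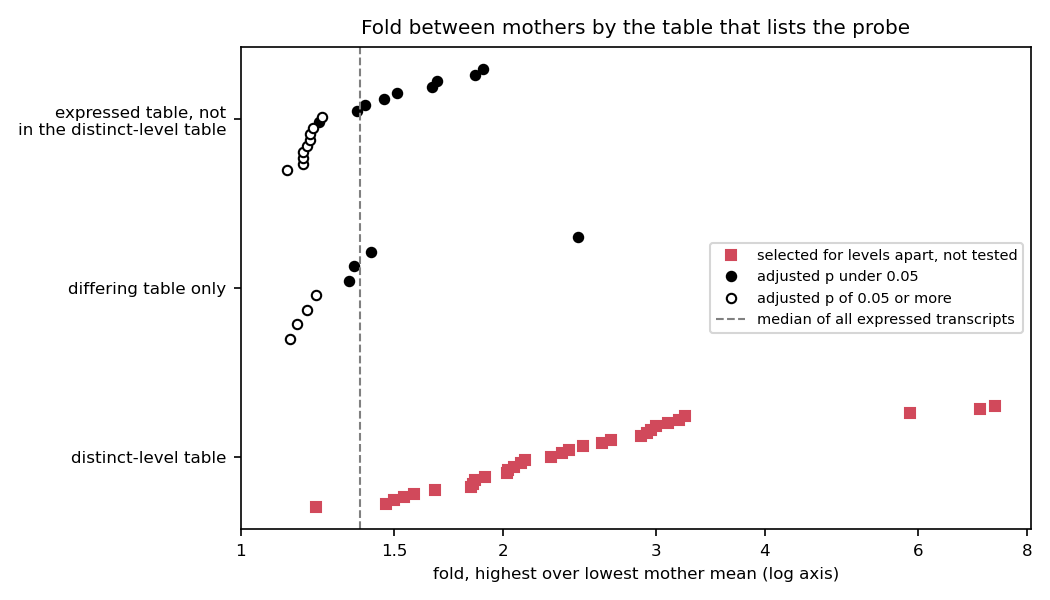
Fold of the highest over the lowest mother mean of each of the 57 probes (horizontal log axis), in 3 rows by the table that lists the probe, with the adjusted p shown only for probes not selected for distinct levels. Probes of the expressed table that are not in the distinct-level table run between 1.13 and 1.9, the median of all expressed transcripts is 1.37 (dashed), and the ratios measured in the distinct-level table reach 7.36.

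Sister eggs varied little after quantile normalization of the median signal. The maximum fold change over the 24 eggs (highest over lowest egg) was over 2 in 34 of the 57 probes and in 8 of the 20 of the expressed table, beside 44.2% of all expressed transcripts. Within clutches, the largest such range was at most 2 in 56 of the 57 and in 19 of the 20, beside 89.4% of all expressed transcripts. The exception was slc16a3 (MCT4, an exporter of lactate), whose widest clutch spanned 2.04-fold. The narrowest was kcnn1b, whose sister eggs differed by at most 1.19-fold. With the scanner's processed signal, the range within clutches was at most 2 in 38 of the 57, and with median centring in 1. The share over all expressed transcripts was not computed for these 2 settings.

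No mother was high throughout. Mothers 2, 3 and 4 had the highest mean for 13 probes each, mother 5 for 10 and mother 1 for 8. Mothers 1 and 2 had the lowest mean for 13 probes each, mothers 3 and 4 for 12 each and mother 5 for 7. Over all expressed transcripts, mothers 1 to 5 were highest in 13.8%, 21.4%, 22.6%, 22.7% and 19.5%, in that order. They were lowest in 16.7%, 23.0%, 23.5%, 19.9% and 16.9%. Of the 57 probes, 31 were chosen by the study for distinct levels. Arrays were on 6 slides, and a pair of mothers shared 3 or 4 of them. The highest mother lay above the lowest in every slide that held both for 49 of the 57 probes. Of the 8 exceptions, 1 had passed the test, atp6v0a1a, where this held in 3 of 4 slides. The highest and lowest mother were picked from these same eggs, and every slide must concur where their ranges do not overlap. The count is therefore a description and no check on slide effects. No share over all expressed transcripts was computed for it.

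**Figure D2:**
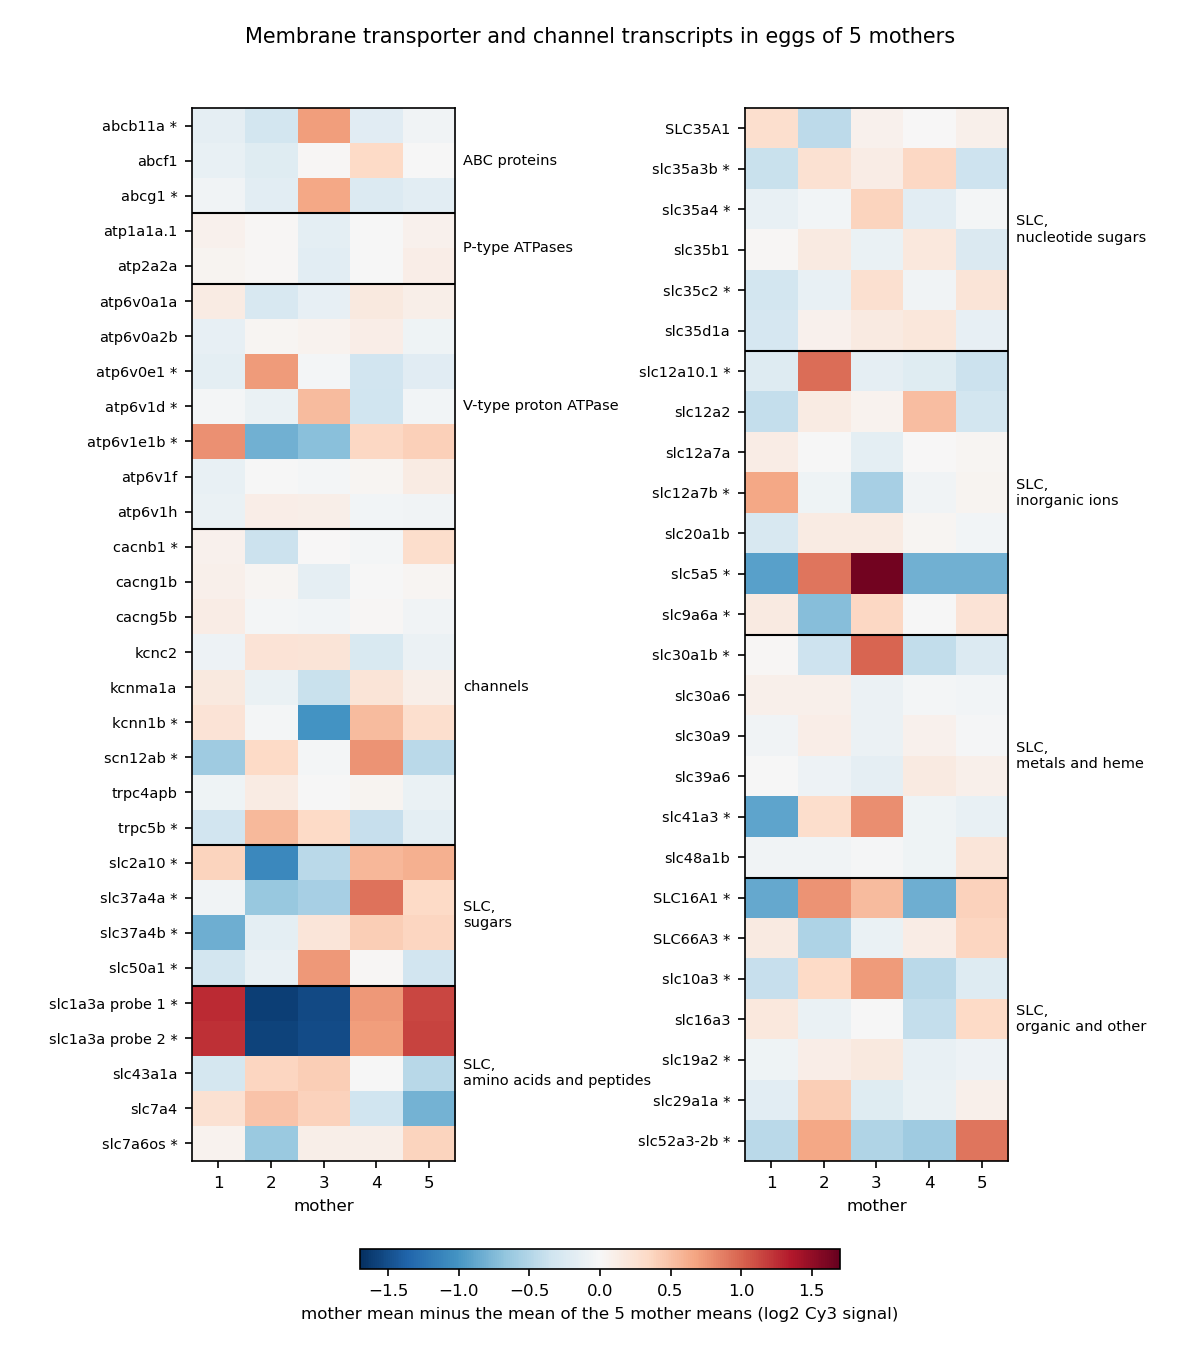
Mean of each mother minus the mean of the 5 mother means (colour, log2 Cy3 signal; red high, blue low) for 56 of the 57 probes, by class, with an asterisk on those selected by the study for distinct levels. The strongest colours are those of slc1a3a, low in mothers 2 and 3, and slc5a5, high in mothers 3 and 2.

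The widest measured differences were those of 2 probes in the class of amino acid transporters, both of the distinct-level table. The 2 probes named slc1a3a, for a glial-type glutamate transporter that takes up glutamate with sodium, were dim in mothers 2 and 3. There, probe 1 was well above background in 0 and 1 of the 5 eggs and probe 2 in 1 and 0, so that only a bound can be given. Set against the lowest signal well above background on each array, or the probe's own where higher, mother 1 was at least 7.26-fold higher than mother 2 with probe 1 and at least 6.54-fold higher than mother 3 with probe 2. These bounds are those of the quantile normalized values and carry no error. For probe 1, the log2 difference of mothers 1 and 2 was 2.88 there, 2.34 with median centring, 2.77 with the ratio of Cy3 over Cy5 and 6.09 with the processed signal. For probe 1, the eggs of mother 1 had 9.26, 9.03, 9.26, 9.48 and 9.43, those of mother 5 had 8.93, 8.80, 9.59 and 9.28 and those of mother 4 had 8.34, 8.72, 9.20, 8.51 and 9.03. The eggs of mother 3 had 6.42, 6.52, 6.33, 6.35 and 6.78 and those of mother 2 had 6.37, 6.69, 6.34, 6.38 and 6.28. Mothers 1, 4 and 5 thus lay together, all above mothers 2 and 3, with a 2.96-fold gap between the nearest eggs. The transcript was called present in all 14 eggs of the high mothers and in 0 of the 10 eggs of mothers 2 and 3.

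For slc1a3a probe 2, the eggs of mother 1 had 9.10, 9.06, 9.06, 9.37 and 9.15, those of mother 5 had 8.86, 8.75, 9.46 and 9.13 and those of mother 4 had 8.22, 8.60, 9.08, 8.32 and 8.84. The eggs of mother 3 had 6.43, 6.38, 6.33, 6.50 and 6.25 and those of mother 2 had 6.46, 6.41, 6.36, 6.13 and 6.27. The same split of the mothers was seen, with a 3.29-fold gap. The study lists each of these probes as also matching the transcript on which the other was designed, so they are not independent measurements of 2 genes. Their Ensembl genes are ENSDARG00000026218 and ENSDARG00000026248. The gene of probe 2 has the symbol SLC1A7 in the gene name table and lies on chromosome 23 between 42054150 and 42201708 (Zv9), so the name of the gene is uncertain.

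Other amino acid carriers differed less. slc43a1a (a carrier of large neutral amino acids; chromosome 14, 21779351 to 21800766, Zv9) had a mean of 12.06 ± 0.12 in mother 3 and 11.16 ± 0.09 in mother 5, a 1.86-fold difference (log2 0.90, SE 0.15; limma adjusted p = 2.14e-05). slc7a4, of the family of cationic amino acid carriers, had 9.34 ± 0.16 in mother 2 and 8.05 ± 0.11 in mother 5, a 2.44-fold difference (log2 1.29, SE 0.14; limma adjusted p = 4.17e-08). Mothers 1, 2 and 3 lay above mothers 4 and 5 in slc7a4, but with a gap that rounds to 0.0 on the log2 scale. slc7a4 was the one transcript outside the distinct-level table with a fold over 2. It is listed only in the table of differing genes, made on the same contrast. slc7a6os, which is named for the strand opposite slc7a6 and encodes no carrier, was lowest in mother 2 (11.37 ± 0.09 in mother 5 and 10.36 ± 0.27 in mother 2).

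**Figure D3:**
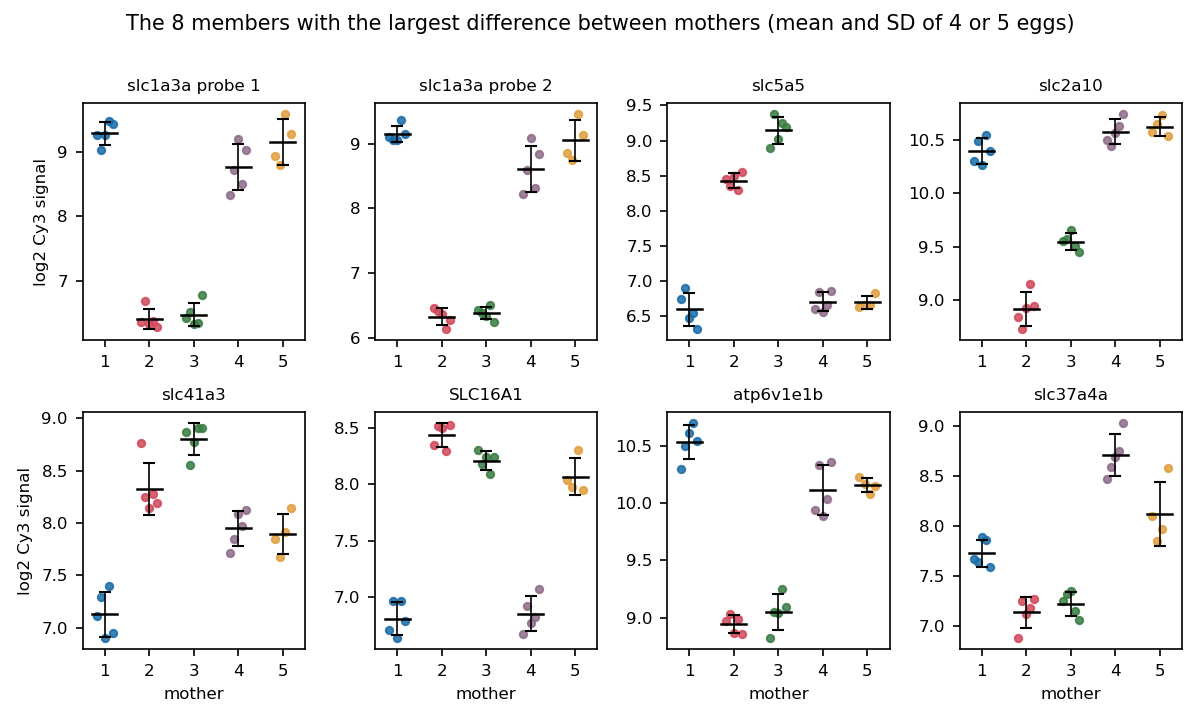
Log2 Cy3 signal (vertical axes, each panel with its own range) of every egg by mother (horizontal axes) for the 8 probes with the largest measured difference between mothers; bars are the mean and the SD of 5 eggs (4 for mother 5). The eggs of a mother lie together, and the set of high mothers changes between genes: 1, 4 and 5 in slc1a3a, 2 and 3 in slc5a5, 2, 3 and 5 in SLC16A1.

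Among carriers of inorganic ions, slc5a5 had the widest difference. It encodes the sodium/iodide symporter, which concentrates iodide in the thyroid (chromosome 8, 13327245 to 13344646, Zv9). The eggs of mother 3 had 8.89, 9.38, 9.02, 9.25 and 9.19 and those of mother 2 had 8.45, 8.35, 8.49, 8.29 and 8.55. The eggs of mother 4 had 6.60, 6.84, 6.56, 6.65 and 6.85, those of mother 5 had 6.63, 6.66, 6.66 and 6.83 and those of mother 1 had 6.74, 6.90, 6.47, 6.54 and 6.31. Mothers 3 and 2 formed a level each, and the other mothers, in which the transcript was present in no egg, a low one. Mother 3 had a measured 5.87 times the mean of mother 1, where the probe was well above background in only 2 of 5 eggs.

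The potassium/chloride cotransporters slc12a7a and slc12a7b, which let chloride leave the cell with potassium, are a pair of paralogs (chromosome 2, 24372093 to 24413680, and chromosome 24, 39890801 to 39997944, Zv9). In slc12a7b, the eggs of mother 1 had 9.29, 9.43, 8.96, 9.30 and 9.12, those of mother 5 8.49, 8.60, 8.61 and 8.74 and those of mother 4 8.39, 8.44, 8.41, 8.68 and 8.59. Those of mother 2 had 8.57, 8.70, 8.52, 8.16 and 8.50 and those of mother 3 8.25, 7.83, 8.38, 7.87 and 7.64. Mother 1 lay above all other eggs, and 2.34-fold above mother 3. In slc12a7a, the eggs of mother 1 had 7.27, 7.49, 7.0, 7.13 and 7.03, those of mother 5 7.06, 7.19, 7.10 and 7.01 and those of mother 4 7.08, 6.99, 7.05, 7.11 and 7.07. Those of mother 2 had 7.09, 7.03, 6.99, 7.06 and 7.09 and those of mother 3 6.93, 6.81, 6.92, 6.84 and 6.93, all of them below the other eggs. Mothers 1 and 3 were the highest and the lowest in both paralogs, by 1.23-fold in slc12a7a (log2 0.30, SE 0.08; limma adjusted p = 0.0235). That call was lost without egg 2 or egg 4 of mother 3 and with the ratio of Cy3 over Cy5 (adjusted p between 0.00203 and 0.327 over the alternatives), and with median centring the difference was -0.02 in slc12a7a and 0.41 in slc12a7b.

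slc12a2, the sodium/potassium/chloride cotransporter NKCC1, which brings chloride into the cell, had 11.24 ± 0.15 in mother 4 and 10.31 ± 0.10 in mother 1, a 1.9-fold difference (log2 0.93, SE 0.12; limma adjusted p = 3.65e-06). It was called under all 36 alternatives. slc20a1b (a sodium/phosphate cotransporter) was 1.33-fold higher in mother 2 than in mother 1 (limma adjusted p = 0.0353), a call lost under 8 of 35 alternatives, among them the slide as a block and leaving out egg 3 or egg 5 of mother 1 or egg 4 of mother 2. The endosomal sodium/proton exchanger slc9a6a was in both the expressed and the distinct-level table, with 9.57 ± 0.21 in mother 3 and 8.49 ± 0.34 in mother 2. All eggs of mother 2 lay below the others, with a gap of 0.041 on the log2 scale. slc12a10.1, of the family of cation/chloride cotransporters, was highest in mother 2 (8.21 ± 0.29 in mother 2 and 6.91 ± 0.14 in mother 5, a 2.47-fold difference), where the follicle cell marker lhcgr was also high; its part in this was not tested.

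All 4 sugar carriers were in the distinct-level table, and their folds ran between 2.1 and 3.24. slc2a10 encodes the facilitative glucose transporter GLUT10 (chromosome 11, 2344819 to 2355462, Zv9). Its eggs had 10.57, 10.65, 10.73 and 10.53 in mother 5, 10.50, 10.44, 10.56, 10.63 and 10.74 in mother 4 and 10.30, 10.49, 10.26, 10.54 and 10.39 in mother 1. They had 9.55, 9.57, 9.66, 9.51 and 9.45 in mother 3 and 8.84, 8.73, 8.93, 9.15 and 8.95 in mother 2. Mothers 3 and 2 formed levels of their own below the other mothers, and mother 5 was 3.24-fold above mother 2.

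slc37a4a and slc37a4b are paralogs for the carrier of glucose 6-phosphate into the endoplasmic reticulum (chromosome 15, 9318549 to 9339495, and chromosome 10, 39192826 to 39272701, Zv9). In slc37a4a, the eggs had 8.47, 8.59, 8.69, 8.75 and 9.03 in mother 4, 8.10, 7.85, 7.97 and 8.58 in mother 5 and 7.67, 7.64, 7.89, 7.86 and 7.59 in mother 1. They had 7.25, 7.32, 7.35, 7.15 and 7.06 in mother 3 and 6.88, 7.25, 7.12, 7.18 and 7.27 in mother 2. Mothers 2 and 3 lay below the others, and mother 4 was 2.96-fold above mother 2. In slc37a4b, the eggs had 8.40, 8.55, 8.32, 8.46 and 9.07 in mother 4, 8.56, 8.43, 8.54 and 8.51 in mother 5 and 8.33, 8.28, 8.63, 8.11 and 8.44 in mother 3. They had 7.89, 7.84, 8.43, 7.97 and 7.79 in mother 2 and 7.46, 7.18, 7.43, 7.39 and 7.08 in mother 1, which lay below all other eggs. Both paralogs were highest in mother 4, by 2.38-fold over mother 1 in slc37a4b, but the low mothers were not the same. slc50a1, a sugar exporter of the SWEET family, was highest in mother 3 (7.91 ± 0.12 in mother 3 and 6.84 ± 0.10 in mother 5).

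**Figure D4:**
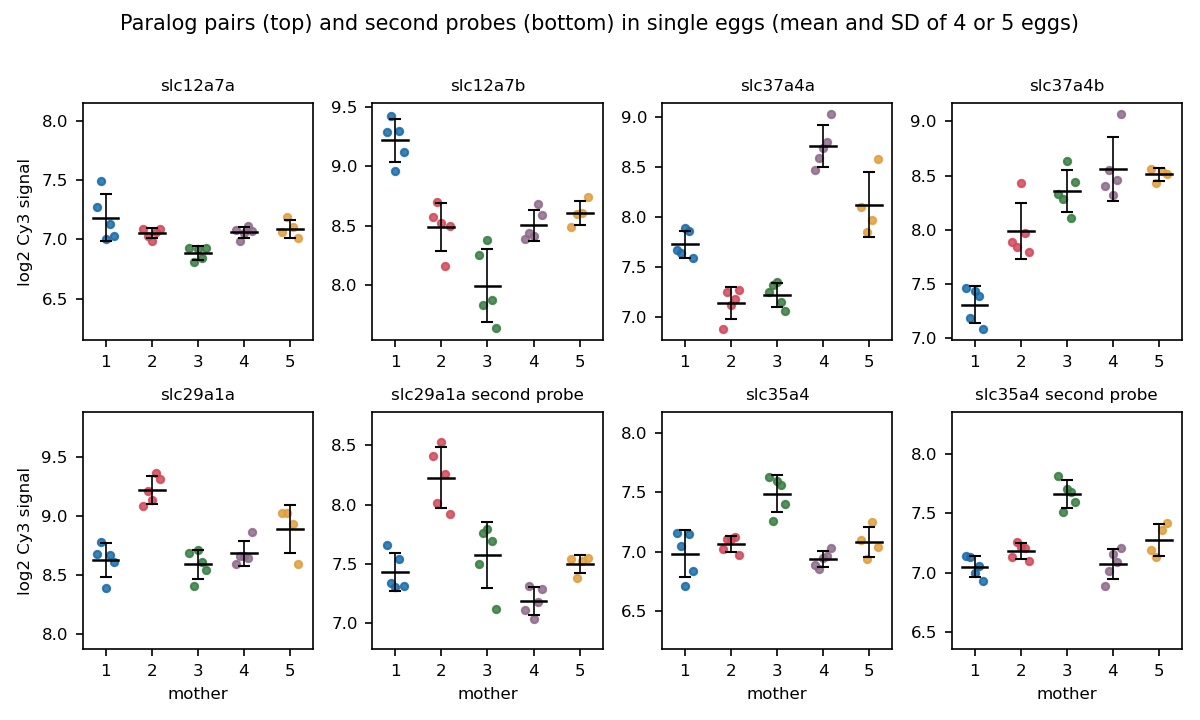
Log2 Cy3 signal (vertical axes, each panel with its own range) of every egg by mother (horizontal axes) for the paralogs slc12a7a and slc12a7b, and slc37a4a and slc37a4b (top), and for slc29a1a and slc35a4 with a second probe of the same transcript (bottom); bars are the mean and SD. Mother 1 is at the top in both slc12a7 genes but at the bottom in slc37a4b, and each second probe sets apart the same mother as the first.

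Of 6 carriers of metals and heme, 2 had distinct levels, both of the distinct-level table. slc41a3, of a family of magnesium carriers (chromosome 23, 34928263 to 34970891, Zv9), had 8.87, 8.55, 8.77, 8.91 and 8.91 in the eggs of mother 3 and 8.76, 8.25, 8.14, 8.28 and 8.19 in those of mother 2. It had 7.71, 7.85, 8.09, 7.97 and 8.12 in mother 4, 7.85, 7.68, 7.91 and 8.14 in mother 5 and 7.11, 7.29, 6.90, 7.40 and 6.95 in mother 1. Mother 1 lay below all other eggs, with a 1.22-fold gap, and 3.19-fold below mother 3. slc30a1b, which exports zinc from the cell, was highest in mother 3 (9.58 ± 0.25 in mother 3 and 8.17 ± 0.20 in mother 4, a 2.66-fold difference). The zinc carriers slc30a6, slc30a9 and slc39a6 and the heme carrier slc48a1b had folds between 1.14 and 1.24. Their limma adjusted p lay between 0.101 and 0.408, so that none was called, beside 61.6% of all expressed transcripts. With the array mean as a covariate, slc30a9, slc39a6 and slc48a1b passed the threshold (lowest adjusted p 0.0273, 0.00431 and 0.0369 over the alternatives), as did slc39a6 without egg 1 and slc48a1b without egg 4 of mother 4.

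The 6 probes of the SLC35 family had small folds, between 1.35 and 1.67. The family includes carriers that bring nucleotide sugars into the Golgi apparatus and endoplasmic reticulum for glycosylation. The 6 were grouped by name, and what slc35b1 carries was not tested. All 3 of the 6 outside the distinct-level table differed, beside 61.6% of all expressed transcripts. Of these, slc35b1 is listed only in the table of differing genes, made on the same contrast. SLC35A1, the carrier of CMP-sialic acid, had 9.60 ± 0.25 in mother 1 and 8.87 ± 0.13 in mother 2, a 1.66-fold difference (limma adjusted p = 0.000233). slc35d1a, a carrier of UDP-glucuronic acid, had 10.57 ± 0.05 in mother 4 and 10.09 ± 0.23 in mother 1 (limma adjusted p = 0.00394), and slc35b1 had 7.17 ± 0.09 in mother 4 and 6.73 ± 0.06 in mother 5 (limma adjusted p = 0.00246, lost with the ratio of Cy3 over Cy5). slc35a3b, a carrier of UDP-N-acetylglucosamine, was low in mothers 1 and 5, with 9.69 ± 0.12 in mother 4 and 8.94 ± 0.14 in mother 1.

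slc35a4 was measured with 2 probes. With the listed probe, the eggs of mother 3 had 7.63, 7.26, 7.60, 7.56 and 7.40, those of mother 5 7.10, 6.94, 7.25 and 7.04 and those of mother 2 7.02, 7.11, 7.11, 7.12 and 6.97. Those of mother 1 had 7.16, 7.05, 6.71, 7.15 and 6.84 and those of mother 4 6.89, 6.85, 6.95, 6.96 and 7.03. With the second probe, the eggs of mother 3 had 7.82, 7.51, 7.71, 7.68 and 7.60, those of mother 5 7.19, 7.13, 7.36 and 7.42 and those of mother 2 7.13, 7.26, 7.22, 7.21 and 7.10. Those of mother 4 had 6.89, 7.01, 7.16, 7.09 and 7.21 and those of mother 1 7.14, 7.13, 7.0, 7.06 and 6.93. Mother 3 stood above all other eggs with both probes, by 1.47-fold over mother 4 and by 1.53-fold over mother 1. With the listed probe, the gap between the nearest eggs was only 0.008 on the log2 scale. Over the 24 eggs, the signals of the 2 probes had a Pearson correlation of 0.919, as a description, since eggs of 1 mother are not independent and both probes share the array.

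Among carriers of organic molecules, SLC16A1, the monocarboxylate transporter MCT1 for lactate and pyruvate, split the mothers in a further way (chromosome 6, 48979549 to 49050366, Zv9). The eggs had 8.35, 8.52, 8.50, 8.30 and 8.53 in mother 2, 8.31, 8.18, 8.24, 8.09 and 8.24 in mother 3 and 8.04, 7.98, 8.31 and 7.95 in mother 5. They had 6.67, 6.92, 6.77, 6.82 and 7.07 in mother 4 and 6.70, 6.96, 6.63, 6.96 and 6.78 in mother 1. Mothers 1 and 4 lay below the others with a 1.84-fold gap, and mother 2 was a measured 3.1-fold above mother 1, whose signal cleared the background in 3 of 5 eggs. slc16a3, the related MCT4, was 1.68-fold higher in mother 5 than in mother 4 (13.14 ± 0.16 in mother 5 and 12.40 ± 0.16 in mother 4; limma adjusted p = 0.016), and this call was lost with the slide as a block (adjusted p between 0.00348 and 0.193 over all alternatives), and the difference turned to -0.20 on the log2 scale with median centring.

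slc29a1a, an equilibrative nucleoside carrier, was also measured with 2 probes. With the listed probe, the eggs had 9.08, 9.21, 9.13, 9.36 and 9.31 in mother 2, 9.02, 9.02, 8.93 and 8.59 in mother 5 and 8.59, 8.66, 8.66, 8.64 and 8.86 in mother 4. They had 8.68, 8.78, 8.39, 8.67 and 8.61 in mother 1 and 8.69, 8.41, 8.71, 8.61 and 8.54 in mother 3. With the second probe, the eggs had 8.41, 8.01, 8.53, 8.26 and 7.92 in mother 2, 7.50, 7.76, 7.79, 7.69 and 7.12 in mother 3 and 7.54, 7.38, 7.52 and 7.55 in mother 5. They had 7.66, 7.34, 7.30, 7.54 and 7.31 in mother 1 and 7.11, 7.31, 7.03, 7.18 and 7.29 in mother 4. Mother 2 lay above all other eggs with both probes, but the order of the other mothers was not the same. The fold was 1.54 with the listed probe (mother 2 over mother 3) and 2.05 with the second (mother 2 over mother 4). Over the 24 eggs, the signals of the 2 probes had a Pearson correlation of 0.659, again as a description. With median centring, the log2 difference of mothers 2 and 3 with the listed probe was 0.1, against 0.63. As with slc12a10.1, the marker lhcgr was high in mother 2 as well, and its part in this was not tested.

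The vitamin carriers had different patterns. slc52a3-2b, a riboflavin carrier, was high in mothers 5 and 2, with 8.0 ± 0.15 in mother 5 and 6.48 ± 0.07 in mother 4, a measured 2.88-fold difference, with 3 of the 5 eggs of mother 4 well above background. slc19a2, a thiamine carrier, was high in mothers 3 and 2 by only 1.22-fold (7.44 ± 0.13 in mother 3 and 7.15 ± 0.14 in mother 4). Its gap between the nearest eggs was 0.004 on the log2 scale. slc10a3, an orphan of the bile acid carrier family, had the same set of high mothers and a 2.27-fold difference (8.46 ± 0.20 in mother 3 and 7.27 ± 0.11 in mother 4). SLC66A3, of the PQ-loop family, is in the distinct-level table, but its clutch ranges overlapped here (8.94 ± 0.14 in mother 5 and 8.05 ± 0.21 in mother 2).

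The 7 subunits of the V-type proton ATPase among the probes, each with 1 probe, did not share 1 pattern over the mothers. This pump has a V1 part in the cytosol, which splits ATP, and a V0 part in the membrane, which passes protons. Of the 7 subunits, 3 are in the distinct-level table, atp6v1e1b, atp6v1d and atp6v0e1. That clutches stand apart in these 3 follows from how they were chosen. Of the other 4, atp6v0a1a alone differed, beside 61.6% of all expressed transcripts. In atp6v1e1b, a subunit of the outer stalk (chromosome 4, 5231556 to 5238765, Zv9), the eggs had 10.30, 10.50, 10.61, 10.70 and 10.54 in mother 1, 10.23, 10.17, 10.08 and 10.15 in mother 5 and 9.94, 10.33, 9.89, 10.04 and 10.36 in mother 4. They had 8.82, 9.05, 9.04, 9.25 and 9.09 in mother 3 and 8.97, 9.03, 8.87, 8.99 and 8.86 in mother 2. Mothers 2 and 3 lay below the others with a 1.56-fold gap, and mother 1 was 3.0-fold above mother 2.

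In atp6v1d, of the central stalk, the eggs had 10.04, 10.05, 10.22, 10.36 and 10.28 in mother 3, 9.65, 9.76, 9.68, 9.78 and 9.18 in mother 1 and 9.51, 9.62, 9.63 and 9.63 in mother 5. They had 9.38, 9.59, 9.31, 9.74 and 9.63 in mother 2 and 9.17, 9.25, 9.23, 9.46 and 9.44 in mother 4. Mother 3, low in atp6v1e1b, was here above all other eggs, and 1.84-fold above mother 4. In the small V0 subunit atp6v0e1, mother 2 was above all other eggs, with 10.30 ± 0.15 in mother 2 and 9.26 ± 0.14 in mother 4, a 2.06-fold difference that was 0.09 on the log2 scale with median centring, against 1.05. The marker lhcgr, too, was high in mother 2 alone, and its part in this was not tested.

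The 4 subunits outside the distinct-level table had folds between 1.18 and 1.36. In atp6v1f, of the central stalk, the eggs had 10.01, 9.77, 10.06 and 9.98 in mother 5, 10.06, 9.64, 9.80, 9.99 and 9.82 in mother 4 and 10.02, 10.09, 9.67, 9.66 and 9.64 in mother 2. They had 9.98, 9.44, 9.80, 9.72 and 9.98 in mother 3 and 9.56, 9.82, 9.35, 9.92 and 9.82 in mother 1. In atp6v1h, the regulatory subunit, the eggs had 9.44, 9.59, 9.53, 9.93 and 9.89 in mother 2, 9.62, 9.58, 9.81, 9.80 and 9.46 in mother 3 and 9.37, 9.51, 9.43, 9.65 and 9.58 in mother 4. They had 9.46, 9.60, 9.51 and 9.42 in mother 5 and 9.40, 9.16, 9.59, 9.57 and 9.49 in mother 1. The clutches overlapped in both, with a 1.2-fold and a 1.18-fold difference between the highest and the lowest mother (limma adjusted p = 0.425 and 0.164). The a subunits of V0 had a 1.19-fold difference in atp6v0a2b (limma adjusted p = 0.271) and a 1.36-fold difference in atp6v0a1a (10.51 ± 0.14 in mother 4 and 10.06 ± 0.17 in mother 2; limma adjusted p = 0.00547, lost with the processed signal).

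**Figure D5:**
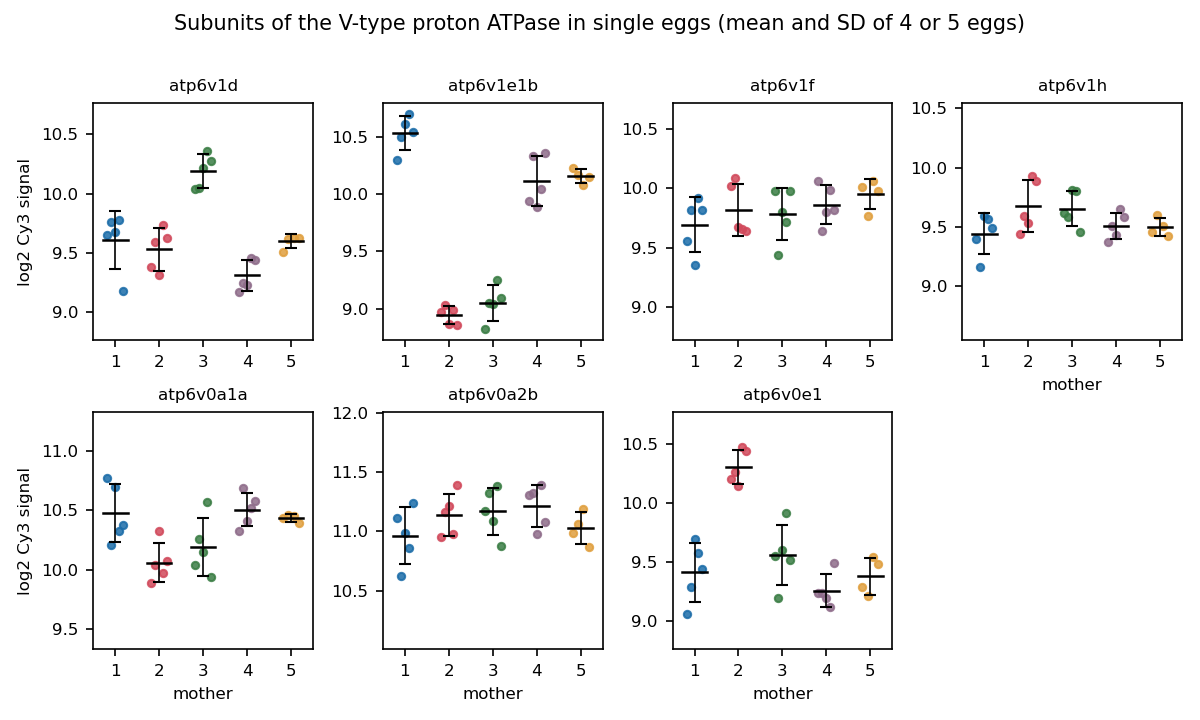
Log2 Cy3 signal (vertical axes, each panel with its own range) of every egg by mother (horizontal axes) for 7 subunits of the V-type proton ATPase; bars are the mean and SD of 5 eggs (4 for mother 5). atp6v1e1b is low in mothers 2 and 3, atp6v1d is highest in mother 3 and atp6v0e1 in mother 2, while the clutches of atp6v1f and atp6v1h overlap.

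Neither of the 2 P-type ATPases passed the test, beside 61.6% of all expressed transcripts that did. atp1a1a.1 encodes the catalytic subunit of the sodium/potassium pump (chromosome 1, 1541972 to 1701828, Zv9). Its eggs had 13.16, 13.38, 13.34 and 13.11 in mother 5, 13.12, 12.85, 13.51, 13.21 and 13.50 in mother 1 and 13.02, 12.95, 13.22, 13.25 and 13.51 in mother 2. They had 13.24, 13.31, 13.03, 13.08 and 13.13 in mother 4 and 12.73, 13.20, 13.11, 13.26 and 12.71 in mother 3. All clutches overlapped, and mother 5 was 1.18-fold above mother 3 (limma adjusted p = 0.426; 0.0432 with the ratio of Cy3 over Cy5), a difference that turned to -0.39 on the log2 scale with median centring. The calcium pump of the endoplasmic reticulum, atp2a2a, had 8.61 ± 0.21 in mother 5 and 8.32 ± 0.24 in mother 3, a 1.22-fold difference (limma adjusted p = 0.262).

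Of the 3 ABC proteins, abcb11a (the bile salt export pump) and abcg1 (which exports cholesterol) are in the distinct-level table, and mother 3 stood above all other eggs in both. abcb11a had 7.91 ± 0.23 in mother 3 and 6.89 ± 0.06 in mother 2, a 2.03-fold difference, and abcg1 had 8.26 ± 0.26 in mother 3 and 7.37 ± 0.17 in mother 4, a 1.86-fold difference. abcf1, which has no membrane part and acts in translation, had 10.34 ± 0.12 in mother 4 and 9.79 ± 0.29 in mother 2, a 1.46-fold difference (limma adjusted p = 0.00915, lost with the array mean as a covariate). The same code, mother 3 alone above the other mothers, was held by 6 of the 32 probes with distinct levels: abcb11a, abcg1, atp6v1d, slc30a1b, slc35a4 and slc50a1. All 6 are in the distinct-level table, and no share of this code over all expressed transcripts was computed. The count is therefore a description.

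Ion channels included the transcripts with the smallest F and the one with the most levels. The calcium channel gamma subunits cacng1b and cacng5b had the smallest values. In cacng1b, the eggs had 7.10, 7.86, 7.18, 7.58 and 7.25 in mother 1, 7.64, 7.47, 7.35, 7.29 and 6.95 in mother 2 and 7.21, 7.28, 7.41 and 7.44 in mother 5. They had 7.61, 7.26, 7.28, 7.06 and 7.24 in mother 4 and 6.98, 7.43, 7.05, 6.93 and 7.35 in mother 3. In cacng5b, the eggs had 7.60, 8.02, 7.87, 8.02 and 7.87 in mother 1, 7.68, 7.78, 7.73, 7.64 and 8.01 in mother 4 and 7.87, 7.88, 7.41, 7.82 and 7.63 in mother 2. They had 7.62, 7.55, 7.73, 7.97 and 7.68 in mother 3 and 7.55, 7.59, 7.85 and 7.80 in mother 5. The clutches overlapped in both, with a 1.18-fold and a 1.13-fold difference (limma adjusted p = 0.543 and 0.51).

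kcnn1b, a small-conductance potassium channel opened by calcium (chromosome 8, 13206666 to 13277862, Zv9), had 4 levels, the largest number in the group. The smallest gap between these levels was only 0.007 on the log2 scale. kcnn1b had 7.75 ± 0.02 in mother 4 and 6.20 ± 0.09 in mother 3, where it was well above background in 0 of 5 eggs, so that mother 4 was at least 2.52-fold higher. Its gene lies 49.4 kb from that of slc5a5 on chromosome 8, and mother 3 was the lowest in kcnn1b and the highest in slc5a5. scn12ab, a voltage-gated sodium channel, had 3 levels, with 9.11 ± 0.13 in mother 4 and 7.73 ± 0.27 in mother 1, a 2.6-fold difference. trpc5b, a cation channel that lets in calcium, had 8.11 ± 0.15 in mother 2 and 7.18 ± 0.12 in mother 4, a 1.91-fold difference.

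Of the 5 channel probes outside the distinct-level table, 2 differed, beside 61.6% of all expressed transcripts. Of the 5, kcnc2 and trpc4apb are listed only in the table of differing genes, made on the same contrast. kcnma1a, the large-conductance calcium-activated potassium channel, had 8.02 ± 0.09 in mother 4 and 7.42 ± 0.17 in mother 3, a 1.51-fold difference (log2 0.59, SE 0.12; limma adjusted p = 0.001). kcnc2, a voltage-gated potassium channel, had 8.19 ± 0.20 in mother 2 and 7.70 ± 0.07 in mother 4, a 1.41-fold difference (log2 0.49, SE 0.10; limma adjusted p = 0.00028). With median centring this difference turned to -0.24 (adjusted p between 4e-05 and 0.157 over the alternatives). trpc4apb, a partner of TRPC4 and not a channel itself, had a 1.19-fold difference (limma adjusted p = 0.231). The calcium channel beta subunit cacnb1 was lowest in mother 2, by 1.58-fold below mother 5 (7.95 ± 0.07 in mother 5 and 7.29 ± 0.09 in mother 2).

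Genes of membrane transport outside the naming rule were counted in the same fit, from a list of prefixes (mitochondrial carriers, ATP synthase, volume-regulated and calcium-activated chloride channels, endolysosomal TPC channels, gap junctions and channel partners). All 34 such probes in the tables were expressed. Of the 21 in the expressed table, 19 differed between mothers, beside 65.3% of that table, with a median fold of 1.34. The 19 include cx30.9, slc25a25a, tmem199 and tpcn2, which are also in the distinct-level table. Their calls are a description and no test. Among the 19 were 7 of 8 probes of ATP synthase subunits (atp5) and 6 of 7 of mitochondrial carriers (slc25), slc25a25a included. The exceptions were atp5o (1.13-fold, limma adjusted p = 0.361) and slc25a3b, the phosphate carrier (1.09-fold, limma adjusted p = 0.689).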

How the data were processed

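On each array of 180822 spots, the Cy3 channel held amplified RNA of 1 egg and the Cy5 channel a pool of eggs that served as reference. The authors deposited the scanner output of Agilent Feature Extraction 10.7.3.1 (named in the submitters' processing notes), whose median signals are intensity values without background subtraction or normalization. The series table holds log2 values deposited by the authors after quantile normalization, and was used for the rule on the mean signal and as an alternative.

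Here, log2 of the median Cy3 intensity was quantile normalized over 88754 probes, and non-uniform spots were left out. A transcript was called expressed as in the methods of the study, from the variance of the raw values (probability over 0.95 of the high-variance class on at least 4 arrays). Samples were grouped by mother from the labels. The moderated F-test over 5 mothers came from lmFit and eBayes of limma 3.58.1 under R 4.3.3 (with matrixStats 1.5.0; Benjamini-Hochberg adjustment over all expressed transcripts at 0.05), and the 10 pairs of mothers were taken as contrasts, with a minimum fold of 2. The design named limma in place of the analysis of variance of the study. Ranges and distinct levels follow the methods. The F-test calls, the choice of the highest mother and the number of levels were tested on simulated, already normalized values. The other steps were not. Precision here depends on how many arrays there are and on how far a signal lies above background. Python 3.11.15 with pandas 2.3.3, numpy 2.4.6 and matplotlib 3.10.9 served for summaries and figures.

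Probes were named from the symbols of the study's tables or, for 6 of the 57, from the gene name table alone. Positions were given for 43 of the 57 and are those of the tables (Zv9). Values of every egg are given for the 8 probes with the largest difference, the 4 with the smallest F, genes with 2 probes, and pairs whose symbols differ in the last letter (which also takes in atp6v1d, atp6v1f and atp6v1h). The members, lists and rules were chosen with earlier results of these data known. Probe sequences were not used here, and 1 of the 57 probes is counted but not reported by name.

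The alternatives were other signals and scalings, a stricter and an absent probe filter, blocks for slide, for position on the slide and for egg number, the array mean as a covariate, and each egg left out in turn.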

Additional observations from a re-analysis of the deposited data

Results flagged for a closer look

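Among 105 sets of sister eggs, that is each probe given egg by egg in each mother, 9 eggs lay far from their sisters by Dixon's test, where chance alone flags about 1 in 20 sets. In slc1a3a probe 1, egg 2 of mother 2 had 6.69 on the log2 scale, where its sisters had 6.28 to 6.38, and in probe 2, egg 4 of mother 1 had 9.37 (sisters 9.06 to 9.15). Egg 4 of mother 5 had 6.83 in slc5a5 (sisters 6.63 to 6.66), a mother in which that transcript was present in no egg. Egg 1 of mother 2 had 8.76 in slc41a3 (sisters 8.14 to 8.28), and egg 3 of mother 2 had 8.43 in slc37a4b (sisters 7.79 to 7.97). In slc29a1a, egg 5 of mother 4 had 8.86 with the listed probe (sisters 8.59 to 8.66) and egg 2 of mother 5 had 7.38 with the second (sisters 7.52 to 7.55). In atp6v1d, egg 5 of mother 1 had 9.18 (sisters 9.65 to 9.78) and egg 1 of mother 5 had 9.51 (sisters 9.62 to 9.63). These eggs came from 4 of the 5 mothers, and none was far from its sisters in more than 1 of the genes listed.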

How the results depend on the processing

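The counts of transporter and channel probes depended on the scaling and on the probe filter. Counts over all 57, here and below, take in the 31 probes chosen for distinct levels and are a description. With median centring, 1 of the 20 probes of the expressed table and 19 of all 57 differed between mothers, 6 had distinct levels, 41 had a fold over 2 between a pair of mothers, 57 ranged over more than 2-fold over the eggs and 1 ranged over at most 2-fold within clutches. Of all expressed transcripts, 12.4% differed with median centring, 3.28% had distinct levels and 48.2% had a fold over 2. For the ranges, no share over all expressed transcripts was computed under the alternatives. With median centring, 11 of the 26 probes outside the distinct-level table also turned sign, 3 of them called in the main values: slc12a7a (-0.02, mother 1 minus mother 3, log2), slc16a3 (-0.20, mother 5 minus mother 4) and kcnc2 (-0.24, mother 2 minus mother 4). Among the 8 not called were atp1a1a.1 (-0.39, mother 5 minus mother 3), cacng1b (-0.18, mother 1 minus mother 3) and cacng5b (-0.16, mother 1 minus mother 5); the cause was not tested. With only the probes present on all arrays, 33 of the 57 remained to be tested, of which 22 differed, 13 had distinct levels, 9 had a fold over 2, 17 ranged over more than 2-fold and 32 over at most 2-fold within clutches. Of all transcripts kept by this filter, 61.7% differed, 15.8% had distinct levels and 8.68% had a fold over 2. All other alternatives kept every count within 1.5 times, a wide limit. The processed signal gave 48 of the 57 over 2-fold over the eggs, 38 at most 2-fold within clutches and 30 with a fold over 2. With it, 27.5% of all expressed transcripts had a fold over 2. The ratio of Cy3 over Cy5 gave 45, 50 and 21, and 23 with distinct levels. With this ratio, 10.6% of all expressed transcripts had a fold over 2 and 10.6% had distinct levels. Leaving out 1 egg gave 10 to 12 probes of the expressed table that differed, 43 to 45 of all 57, 32 to 34 with distinct levels, 21 to 22 with a fold over 2, 32 to 34 over 2-fold over the eggs and 56 to 57 at most 2-fold within clutches. Of all expressed transcripts, 58.3% to 66.8% then differed, 18.7% to 21.6% had distinct levels and 10.2% to 11.7% had a fold over 2.

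Of 674 values of the probes given egg by egg under an alternative, 636 kept their direction and call or, for those with no test, moved by less than the SD, 30 moved further, 3 lost and 1 gained a call, and 4 changed sign. Of the probes in the distinct-level table, 0 values changed sign under any alternative. These probes were chosen for levels apart in these same eggs, as were the highest and lowest mother, so this count is no check. With median centring, the smallest of their log2 differences were 0.08 in slc19a2, 0.09 in atp6v0e1 and 0.1 in slc29a1a. Egg numbers were not used as a pairing in the main fit. In 46 pairs of equal number, the correlation of their deviations ran from -0.527 to 0.667, with a median of 0.0609 and 22 pairs over 0.1. Eggs of unequal number were not compared, so these values do not settle whether the numbers pair the samples. With the egg number as a replicate block 11 of the 20 and 43 of the 57 differed, with 21 at a fold over 2. Of all expressed transcripts, 59.8% differed with this block and 10.5% had a fold over 2. The scan date as a block was not run, since all arrays share 1 date. Dim probes limit what can be read: 9 of the 57 were present in no egg of at least 1 mother. No share over all expressed transcripts was computed for this count.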
